A study of Mus musculus with 12 samples.

Results

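The 10 genes described here are the feedback inhibitors and ETS transcription factors that are transcribed downstream of fibroblast growth factor (FGF) receptors: Spry1, Spry2, Spry4, Spred1, Spred2, Spred3, Dusp6, Etv1, Etv4 and Etv5. They were chosen by name, with earlier results of these data known. All 10 were found among the 23358 genes of the count table and passed the filter on low counts. FGF receptors signal through the RAS, RAF, MEK and ERK cascade, and active ERK induces transcription of these genes. Sprouty and Spred proteins restrain the cascade at the level of RAS and RAF, Dusp6 is a phosphatase that inactivates ERK, and Etv1, Etv4 and Etv5 are ETS transcription factors that carry the signal to other genes. In the skull this pathway is known for its part in osteoblast differentiation and in keeping sutures open.

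RNA was sequenced from the frontal bone of mice at postnatal day 3. The dissected piece also held the nasal bone, the coronal suture and the frontonasal suture. Mice were wild type or heterozygous for Fgfr2 C342Y (FGFR2C342Y/+), the allele used to model Crouzon syndrome, in which sutures fuse early. Each genotype was sampled on the C57BL/6 and the BALB/c background, giving 4 groups of 3 samples. The labels give neither sex nor the number of animals in a sample, so p-values measure the spread between these samples, which may be technical. The labels name no treatment in any group.

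Total counts per library ran from 27181658 to 46521546. In C57BL/6 they were 32319568 to 36869392 in wild type and 40633058 to 45399520 in mutant samples, without overlap. In BALB/c they were 27181658 to 34304158 in wild type and 32349496 to 46521546 in mutant samples, which overlapped. The part of this depth difference in the C57BL/6 genotype comparison was not tested. Osteoblast markers were abundant in each group. Their 8 genes summed to between 176185 and 250246 CPM (counts per 1000000 counts of the scaled library) in 11 libraries. The 3 C57BL/6 mutant samples were highest, at 207435 to 250246 CPM, against at most 200770 CPM in any other library. The sum was 108278 CPM in C57BL/6 wild type replicate 1, which was also the extreme library on the first principal component of all genes, at -117 against -91.1 and -89.6 for the other two of its group. The 3 C57BL/6 wild type samples were above every other sample in ciliated cell and basal and secretory epithelial markers. In them 6 ciliated cell genes summed to 14.8 to 33.3 CPM, against 4.03 to 9.71 CPM in C57BL/6 mutants and 4.57 to 6.00 CPM in BALB/c samples. Chondrocyte genes summed to 4602 to 6758 CPM there, against 262 to 2602 CPM in C57BL/6 mutants, 577 to 1688 CPM in BALB/c wild type and 993 to 4817 CPM in BALB/c mutant samples, where replicate 17 reached the C57BL/6 wild type range. Skeletal muscle and glial markers were highest in BALB/c mutant replicate 16, at 365 and 403 CPM, against at most 61.5 and 38.8 CPM in any other library. Erythroid genes summed to 194 to 265 CPM in C57BL/6 wild type and 51.3 to 80.5 CPM in C57BL/6 mutant samples. Osteoclast genes summed to 2055 to 2537 CPM in C57BL/6 wild type and 4347 to 4904 CPM in C57BL/6 mutant samples. Y-linked transcripts were high in 3 of 3 C57BL/6 wild type samples and in 1 of 3 samples of each other group. All C57BL/6 libraries carried 1 run identifier and all BALB/c libraries another, so strain and sequencing run cannot be told apart. Gene counts were 75.6% to 80.7% of the library total that the deposited RPKM values imply in every C57BL/6 library and 86.4% to 88.0% in every BALB/c library. Within C57BL/6 the share was 75.6%, 79.3% and 79.5% in wild type and 80.0%, 80.7% and 80.6% in mutant samples, again without overlap. Its part in the C57BL/6 genotype comparison was not tested. In whole tissue, fewer cells of a type and less RNA per cell cannot be told apart either.

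Fgfr2, the mutated gene, was measured with both alleles counted together. Its level was 212, 252 and 283 CPM in C57BL/6 wild type samples and 337, 370 and 375 CPM in C57BL/6 mutant samples. In BALB/c it was 269, 287 and 290 CPM in wild type and 272, 310 and 318 CPM in mutant samples. The count cannot show which allele a read came from, so it does not check the genotype labels.

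The 10 genes spanned a wide range of levels when counts were divided by the gene length in the deposited table. Dusp6 was the most abundant, at 30.2 CPM per kilobase over the 12 samples (SD 2.31), and Spry1 followed at 24.8 (SD 3.10). Spry4 stood at 16.5 (SD 3.35), Spred1 at 15.5 (SD 3.47), Etv5 at 12.8 (SD 1.86) and Spry2 at 12.1 CPM per kilobase (SD 0.965). Spred2 was intermediate at 8.21 CPM per kilobase (SD 1.07). Etv4, Etv1 and Spred3 were lowest, at 2.54 (SD 0.848), 2.25 (SD 0.791) and 1.83 CPM per kilobase (SD 0.299). Between neighbours in this order, sample ranges were separate only at the step from Spry2 to Spred2 and at the step from Spred2 to Etv4. The families held members of unlike level, with Spred1 above Spred3 and Etv5 above Etv4 and Etv1 in separate ranges. In the authors' table, whose reads were mapped to mm10, the protein-coding genes lie at chr3:37639950-37644599 (Spry1), chr14:105891947-105896819 (Spry2), chr18:38586265-38601268 (Spry4), chr2:117121450-117179336 (Spred1), chr11:19924442-20022597 (Spred2) and chr7:29158829-29168647 (Spred3). Dusp6 lies at chr10:99263231-99267489, Etv1 at chr12:38780258-38868215, Etv4 at chr11:101769742-101785310 and Etv5 at chr16:22381313-22439570. Raw counts behind the lowest members were 120 to 384 for Etv4, 162 to 596 for Etv1 and 188 to 394 for Spred3.

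**Figure D1:**
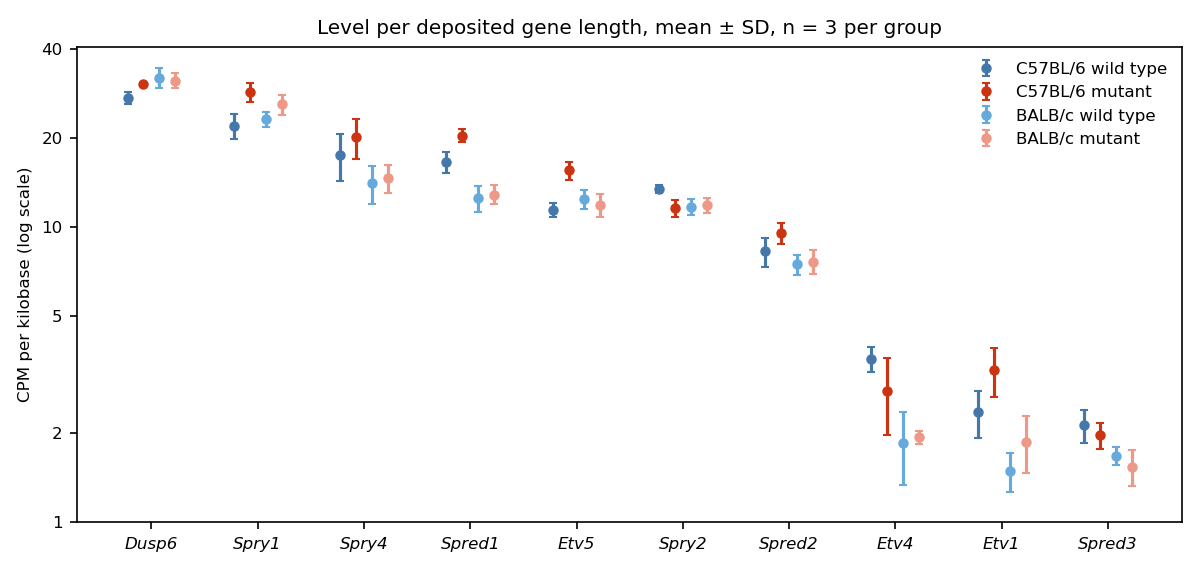
Mean level of each gene per kilobase of deposited gene length, on a log axis, with SD over 3 samples for each of the 4 groups. Dusp6 and Spry1 are highest, and Etv4, Etv1 and Spred3 form a separate low tier in all groups.

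In C57BL/6, the mutation went with higher Etv5, Spry1 and Spred1 and lower Spry2. These 4 of 10 genes passed the test, against 23.9% of all genes tested in this comparison. By direction, 3 rose, beside a background of 11.3%, and 1 fell, beside 12.6%. The median log2 difference over the 10 genes was 0.21, and over all genes tested it was -0.0040.

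Etv5 showed the clearest separation in this strain. Its level was 43.1, 41.6 and 46.1 CPM in wild type and 54.5, 60.7 and 62.3 CPM in mutant samples. The highest wild type sample lay below the lowest mutant sample. The log2 difference was 0.44 (SE 0.0811, edgeR adjusted p = 0.00377), a 1.36-fold higher level. When libraries were scaled by total counts alone it was 0.24 (edgeR adjusted p = 0.0455). Of its 50-base sequence words, 24.5% also occur in a processed pseudogene, Gm4798, which has no row in the table, so a share of its reads may be ambiguous.

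Spry1, a membrane-associated inhibitor of receptor tyrosine kinase signalling, was 49.2, 59.3 and 55.1 CPM in wild type and 66.6, 76.7 and 69.1 CPM in mutant samples of C57BL/6. The groups did not overlap, and the log2 difference was 0.38 (SE 0.0838, edgeR adjusted p = 0.00926). Both Etv5 and Spry1 passed in all 6 fits that left out 1 library of these groups. Without the composition scaling, when libraries were scaled by total counts alone, the median of all genes moved by -0.20 in this comparison. Spry1 was then 0.19 higher (edgeR adjusted p = 0.0828).

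Spred1 suppresses RAF activation by recruiting neurofibromin to the membrane. Its level was 44.8, 51.5 and 52.4 CPM in C57BL/6 wild type and 57.6, 63.7 and 61.2 CPM in C57BL/6 mutant samples. All mutant samples were above all wild type samples, with a log2 difference of 0.30 (SE 0.0872, edgeR adjusted p = 0.0302). The call rested on single libraries, while the log2 difference stayed at 0.25 to 0.34 over the 6 fits that left out 1. Adjusted p was 0.0921 without wild type replicate 1, the library with the low osteoblast sum, 0.104 without mutant replicate 5 and 0.0915 without mutant replicate 6 (edgeR). With scaling by total counts the difference was 0.10 (edgeR adjusted p = 0.277). Of 12 alternatives that kept all libraries of the comparison, 6 kept the Spred1 call. Besides total counts, it was lost with only the 2 groups fitted. It was also lost with the summed ciliated, erythroid, muscle or Y-linked markers as a covariate.

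Spry2 moved opposite to its relative Spry1. It was 29.0, 27.3 and 27.5 CPM in wild type and 23.3, 26.0 and 23.1 CPM in mutant samples of C57BL/6, again without overlap. The log2 difference was -0.21 (SE 0.0694, edgeR adjusted p = 0.0449), close to the threshold of 0.05. With total-count scaling it was -0.41 (edgeR adjusted p = 0.00934). Of 12 alternatives that kept all libraries of the comparison, 5 kept the call. It was lost with DESeq2, with no filter on low counts and with only the 2 groups fitted. It was also lost with the summed ciliated, erythroid, muscle or Y-linked markers as a covariate. Leaving out a library ended this call in 5 of 6 fits, all but the one without mutant replicate 5. Adjusted p in those fits was 0.196 without wild type replicate 1, 0.0717 without wild type replicate 2, 0.0700 without wild type replicate 3, 0.108 without mutant replicate 4 and 0.149 without mutant replicate 6 (edgeR). In the authors' deposited table Spry1, Spred1 and Etv5 had q-values under 0.05 in this comparison, beside 25.3% of all genes with a q-value, while Spry2 had a q-value of 0.238.

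The regions upstream of the start sites of the 4 genes that passed are shown because the genes moved in one comparison but not in one direction. Each is the 250 bases before the RefSeq start on GRCm38.p6, written 5′ to 3′ on the gene's strand, with capitals marking GGAA or its complement TTCC, the core of ETS binding sites. Etv5 is at chr16:22439571-22439820 (minus strand), Spry1 at chr3:37639697-37639946 (plus strand), Spred1 at chr2:117120821-117121070 (plus strand) and Spry2 at chr14:105896820-105897069 (minus strand).
Etv5: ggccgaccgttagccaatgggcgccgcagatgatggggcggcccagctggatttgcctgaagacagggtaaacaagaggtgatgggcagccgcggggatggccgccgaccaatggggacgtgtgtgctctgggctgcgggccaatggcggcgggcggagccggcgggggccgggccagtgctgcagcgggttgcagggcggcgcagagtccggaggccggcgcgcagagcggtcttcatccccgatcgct
Spry1: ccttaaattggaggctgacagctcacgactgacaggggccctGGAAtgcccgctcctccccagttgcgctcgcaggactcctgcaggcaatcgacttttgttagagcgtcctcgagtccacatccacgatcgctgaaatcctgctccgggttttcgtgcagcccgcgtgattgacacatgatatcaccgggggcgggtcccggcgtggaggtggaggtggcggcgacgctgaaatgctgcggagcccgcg
Spred1: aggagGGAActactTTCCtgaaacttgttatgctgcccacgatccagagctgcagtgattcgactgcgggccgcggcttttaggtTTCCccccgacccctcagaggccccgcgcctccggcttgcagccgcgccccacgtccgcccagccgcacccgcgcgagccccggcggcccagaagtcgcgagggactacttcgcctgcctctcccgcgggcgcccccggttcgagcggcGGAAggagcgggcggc
Spry2: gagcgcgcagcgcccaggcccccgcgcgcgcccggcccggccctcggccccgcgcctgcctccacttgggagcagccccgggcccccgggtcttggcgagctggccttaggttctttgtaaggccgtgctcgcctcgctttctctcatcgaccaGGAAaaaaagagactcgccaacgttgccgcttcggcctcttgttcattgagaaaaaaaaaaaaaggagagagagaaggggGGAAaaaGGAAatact
The Etv5 window held 0 matches to the core, Spry1 held 1, Spred1 held 4 and Spry2 held 3. The core is common, with at least 1 match in 93.4% of 32536 promoter windows and a median of 3.

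RefSeq windows were matched for 8 of the 10 genes, all but Spry4 and Etv4. Of these 8, 7 held the GGAA core, with 7 matches in Spred2, 6 in Dusp6, 2 in Etv1 and 1 in Spred3. The longer ETS motif CCGGAAG, the AP-1 motif TGANTCA and the cyclic AMP response element TGACGTCA were in 0 of 8, beside 6.95%, 6.73% and 1.56% of all windows. The GC box GGGCGG was in 5 of 8, beside 33.0% of all windows. Both strands were searched, and matches to GGAA include those inside CCGGAAG. The core was put in capitals after the longer motif had given no match.

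The remaining 6 genes did not pass in C57BL/6. Dusp6 came nearest to a clean separation, at 75.1, 80.5 and 73.4 CPM in wild type and 84.2, 85.2 and 84.6 CPM in mutant samples. Its ranges did not overlap, yet the log2 difference of 0.15 (SE 0.0633) had an edgeR adjusted p of 0.101. With total-count scaling its sign turned, to -0.04. Counting Dusp6, ranges were separate in 5 of 10 genes, with 4 higher (19.7% of all genes) and 1 lower (21.9% of all genes).

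Etv1 was 11.5, 10.4 and 7.9 CPM in wild type and 10.98, 14.5 and 16.1 CPM in mutant samples of C57BL/6. The groups overlapped through mutant replicate 4, the log2 difference was 0.47 (SE 0.198) and the edgeR adjusted p was 0.0980. Of the 50-base words of Etv1, 9.05% also occur in 213 other genes, so part of its low count may be ambiguous in every comparison. Etv4 was 9.0, 8.5 and 7.5 CPM in wild type and 8.7, 5.3 and 5.5 CPM in mutant samples. The log2 difference was -0.36 (SE 0.215, edgeR adjusted p = 0.243). Mutant replicate 4 again lay with the wild type samples. That library also stood nearer to wild type than its group did on the first principal component of all genes, at -69.2 against 22.5 and 16.3 for the other two mutants and -117 to -89.6 for wild type. It held 9.71 CPM of ciliated cell markers, against 4.03 and 4.20 CPM in the other two. Without it Etv1 was 0.62 higher (edgeR adjusted p = 0.0320) and Etv4 was 0.62 lower, at a log2 difference of -0.62 (edgeR adjusted p = 0.0316).

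Spry4, another Sprouty protein, had 64.5, 81.4 and 93.7 CPM in wild type and 92.8, 106 and 77.6 CPM in mutant samples of C57BL/6. Its log2 difference was 0.21 (SE 0.151, edgeR adjusted p = 0.339). Spred2 differed by 0.21 (SE 0.0995, edgeR adjusted p = 0.140) and Spred3 by -0.11 (SE 0.137, edgeR adjusted p = 0.590), and the groups overlapped for both.

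Cell type markers differed across the same comparison. Of 6 ciliated cell genes 5 were lower in C57BL/6 mutants and 0 higher, as were 6 of 6 erythroid genes, 3 of 6 chondrocyte genes and 5 of 6 basal and secretory epithelial genes. Of 6 neutrophil genes 3 were lower. Of 8 osteoblast genes 6 were higher, as were 5 of 5 osteoclast genes, 2 of 5 endothelial genes and 1 of 5 olfactory neuron genes. Of 6 suture mesenchyme genes 2 were lower and 1 higher. Of the 6 ciliated cell genes, 0 to 2 had no counts in a C57BL/6 mutant library. With the ciliated or the erythroid sum as a covariate, 0 of the 10 genes passed in C57BL/6, and 4 and 5 of all 16190 genes did. With the ciliated sum the log2 differences were smaller than without it, at 0.26 for Etv5, 0.11 for Spry1, 0.04 for Spred1 and -0.18 for Spry2. With the erythroid sum they were 0.56 for Etv5, 0.47 for Spry1 and 0.61 for Spred1, larger than without it, and 0.03 for Spry2, with its sign turned (edgeR adjusted p = 0.344 to 0.991 over both fits and these 4 genes). A lost call in these fits thus does not by itself show a smaller difference. Genotype alone accounted for 76.5% and 93.6% of the variance of these sums in that strain, so genotype and these markers cannot be told apart there. With the Y-linked sum as a covariate, Etv5 and Spry1 passed and Spred1 and Spry2 did not (edgeR adjusted p = 0.106 and 0.0899). Genotype accounted for 47% of the variance of the Y-linked sum in C57BL/6 and 0.0142% in BALB/c. Y-linked expression and genotype thus overlapped in part in C57BL/6, and these lost calls do not by themselves show smaller differences.

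**Figure D2:**
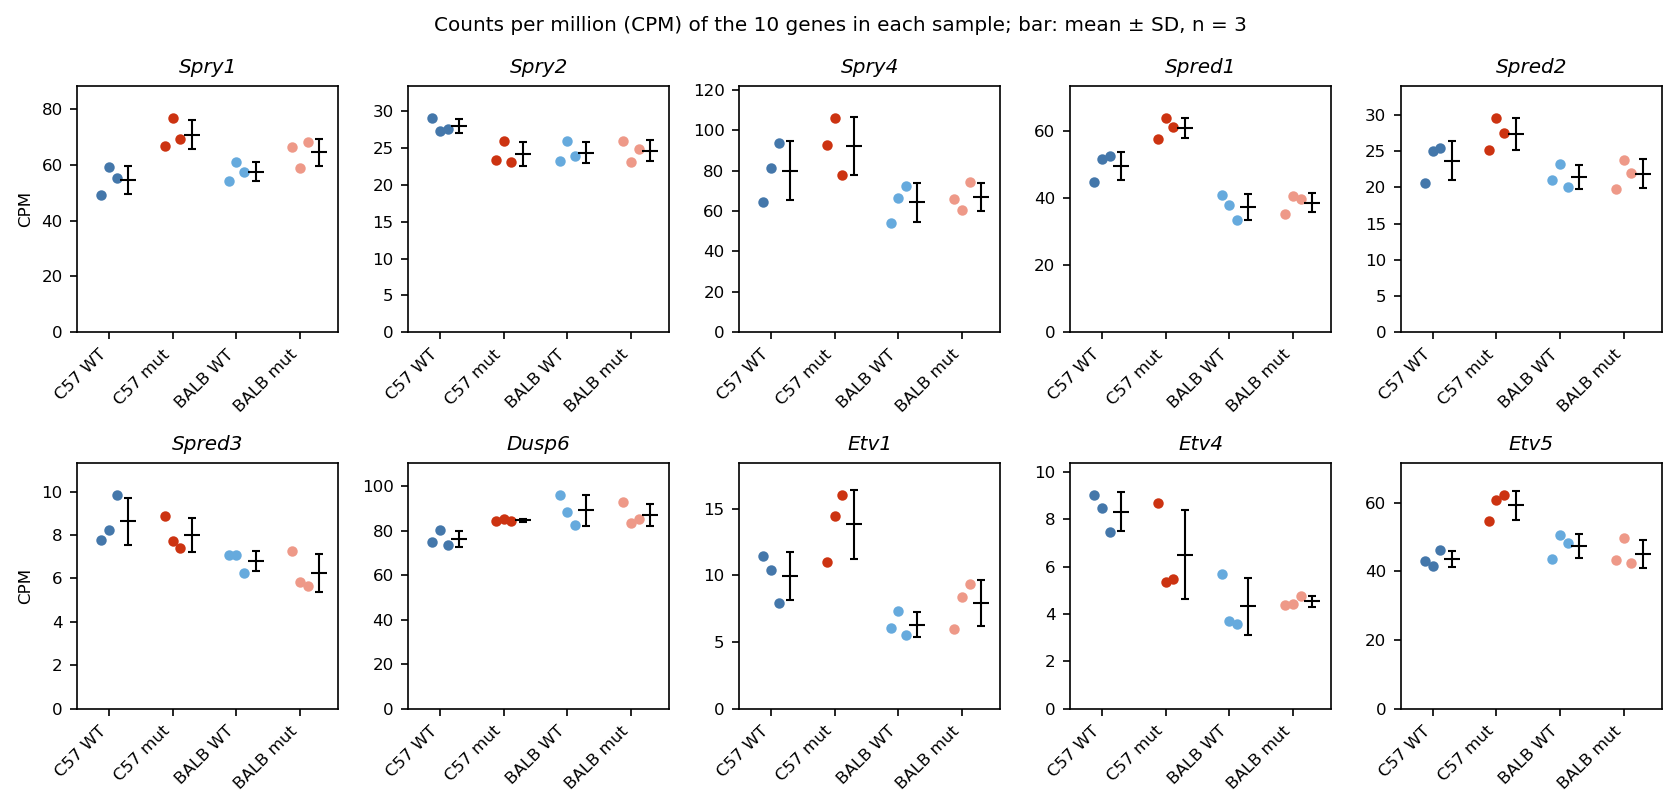
CPM of each of the 10 genes in every sample (points) with group mean and SD (bars, n = 3), axes starting at 0. In C57BL/6 the mutant points of Etv5, Spry1, Spred1 and Dusp6 lie above all wild type points (19.7% of all genes do) and those of Spry2 below (21.9%). Of these genes, Dusp6 did not pass the test. The BALB/c wild type and mutant points overlap in all panels.

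In BALB/c, 0 of 10 genes passed by edgeR, DESeq2 or limma-voom, and 0 had an unadjusted p under 0.05 in edgeR. The authors' deposited table listed 0 of 10 at a q-value under 0.05, beside 1.43% of all genes. The background was low as well, with 0.136% of all genes called by edgeR, 2% by DESeq2 and 0.272% by limma-voom. In edgeR 11.7% of all genes had an unadjusted p under 0.05. Log2 differences ran from -0.12 to 0.33, and wild type and mutant samples overlapped for all 10 genes, where 20% of all genes were separate. Etv5 was 43.5, 50.5 and 48.1 CPM in wild type and 43.2, 49.9 and 42.4 CPM in mutant samples, so that the log2 difference was -0.07 (95% interval -0.25 to 0.11). Spry1 was 54.1, 61.0 and 57.4 CPM in wild type and 66.2, 59.0 and 68.2 CPM in mutant samples. Its log2 difference of 0.16 (95% interval -0.02 to 0.35) had an edgeR adjusted p of 0.489. Dusp6 was 96.3, 88.6 and 82.6 CPM in wild type and 92.9, 83.5 and 85.3 CPM in mutant samples. Etv1 had the largest estimate, 0.33 (SE 0.203, edgeR adjusted p = 0.591), from 6.1, 7.3 and 5.5 CPM in wild type and 6.0, 8.4 and 9.3 CPM in mutant samples.

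The difference between the strains' genotype effects was tested directly. Etv5 was the only one of the 10 genes to pass, beside 10% of all genes called and 4.58% called with a smaller value in BALB/c. Its genotype effect was smaller in BALB/c by 0.51 on the log2 scale (difference -0.51, SE 0.115, edgeR adjusted p = 0.0214). The call was lost in 6 of the 12 fits that left out a library, with adjusted p up to 0.0626 (edgeR), and the difference kept its sign, from -0.58 to -0.45. With total-count scaling, which moved the median of all genes by 0.23 here, the difference was -0.28 (edgeR adjusted p = 0.125). It was -0.32, -0.67 and -0.49 with the ciliated, erythroid and muscle covariates (edgeR adjusted p = 0.786, 0.582 and 0.0958). In the same test 4 of 5 osteoclast and 3 of 8 osteoblast genes had smaller values in BALB/c, as Etv5 did, and 1 of 5 olfactory neuron genes did too. Larger values were found for 6 of 6 erythroid, 4 of 6 muscle, 2 of 6 neutrophil, 1 of 6 chondrocyte and 1 of 6 ciliated cell genes, and the part of these markers in the result was not tested further. The 6 libraries whose omission ended the call were C57BL/6 mutant replicates 5 (adjusted p = 0.05001) and 6 (0.0626), BALB/c wild type replicates 14 (0.0538) and 15 (0.0507), and BALB/c mutant replicates 16 (0.0569) and 18 (0.0521). For Spry1 the difference of effects was -0.21 (95% interval -0.47 to 0.05, edgeR adjusted p = 0.250), so a smaller or an equal effect in BALB/c was not distinguished. For Spred1 it was -0.25 (edgeR adjusted p = 0.202) and for Spry2 0.23 (edgeR adjusted p = 0.150). Averaged over the strains, Spry1 was 0.27 higher in mutants (SE 0.0593, edgeR adjusted p = 0.0204) and was the only one of the 10 to pass, beside 7.99% of all genes. That call was lost without BALB/c wild type replicate 13 (edgeR adjusted p = 0.0552) and without BALB/c mutant replicate 18 (edgeR adjusted p = 0.0592), and with total-count scaling (0.19, edgeR adjusted p = 0.0544). It was also lost with the ciliated covariate (0.14, edgeR adjusted p = 0.599) and the erythroid covariate (0.30, edgeR adjusted p = 0.148). In the averaged comparison 5 of 5 osteoclast, 2 of 8 osteoblast, 1 of 5 endothelial and 1 of 5 olfactory neuron genes were higher, and 4 of 6 erythroid, 1 of 6 ciliated cell and 1 of 6 suture mesenchyme genes were lower.

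**Figure D3:**
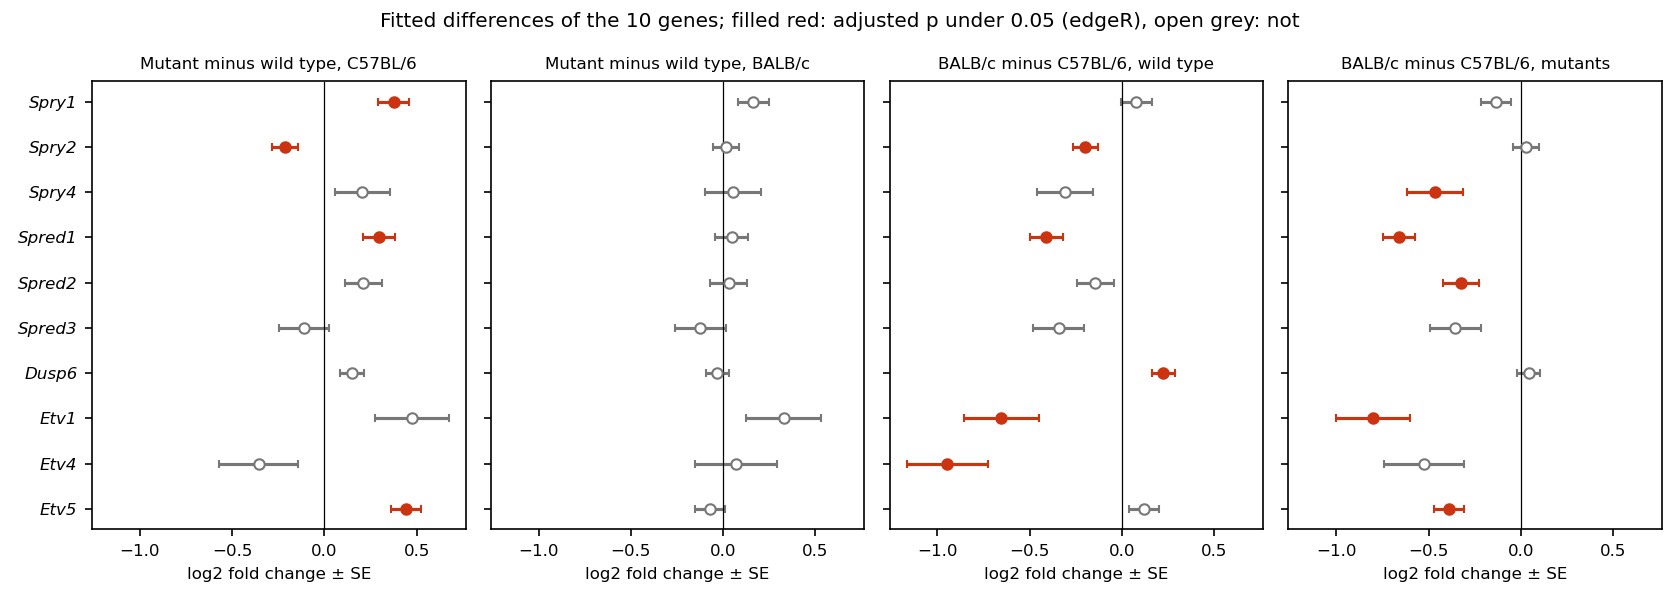
Fitted log2 fold change with SE of each gene in 4 comparisons, filled where the adjusted p is under 0.05. The BALB/c genotype panel has no filled point, and the filled points of the mutant strain comparison all lie below 0.

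The strain comparisons use the same libraries as the genotype comparisons, so their values are given side by side only. The share of the library total that fell on genes, given above, also separated the strains without overlap, and its part in these results was not tested. Between wild type strains, 5 of 10 genes passed, beside 48.5% of all genes. Etv4, Etv1, Spred1 and Spry2 were lower in BALB/c (4 genes, beside 25.6%) and Dusp6 was higher (1 gene, beside 22.8%). Etv4 was 9.0, 8.5 and 7.5 CPM in C57BL/6 and 5.7, 3.7 and 3.6 CPM in BALB/c wild type samples, without overlap. Its log2 difference was -0.95 (SE 0.220, edgeR adjusted p = 0.00420). Etv1 followed at -0.66 (SE 0.203, edgeR adjusted p = 0.0188), from 7.9 to 11.5 CPM in C57BL/6 and 5.5 to 7.3 CPM in BALB/c. The authors' deposited table listed 4 of the 10 genes at a q-value under 0.05, beside 45.3% of all genes, all 4 higher in C57BL/6 wild type: Spred1, Spred3, Etv1 and Etv4. In that table Spry2 had a q-value of 0.171 and Dusp6 of 0.0969, both called here, and Spred3 had 0.00856, not called here.

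The Spred1 values were 44.8 to 52.4 CPM in C57BL/6 and 40.9, 37.8 and 33.3 CPM in BALB/c wild type samples, a log2 difference of -0.41 (SE 0.0883, edgeR adjusted p = 0.00277). Spry2 differed by -0.20 (SE 0.0699, edgeR adjusted p = 0.0341). Dusp6 was the single gene higher in BALB/c, by 0.22 (SE 0.0635, edgeR adjusted p = 0.0123), with 73.4 to 80.5 CPM in C57BL/6 and 82.6 to 96.3 CPM in BALB/c. Without BALB/c wild type replicate 13 the Dusp6 difference was 0.16 (edgeR adjusted p = 0.0622), and with total-count scaling it was 0.11 (edgeR adjusted p = 0.263). The Etv1 call was lost without C57BL/6 wild type replicate 1 (edgeR adjusted p = 0.0726) or BALB/c wild type replicates 13 (0.0575) or 15 (0.0772). The Spry2 call was lost without C57BL/6 replicates 1 (edgeR adjusted p = 0.122), 2 (0.0558) or 3 (0.0574), or BALB/c replicates 13 (0.113) or 15 (0.100). Ranges were separate in 6 of 10 genes, 5 lower (30.1% of all genes) and 1 higher (27.3%). Spry4 and Spred3 did not pass with all libraries (edgeR adjusted p = 0.112 and 0.0588) and passed without C57BL/6 wild type replicate 1 (0.0317 and 0.0455). Here too 6 of 6 ciliated cell genes were lower in BALB/c, as were 5 of 5 olfactory neuron, 6 of 6 basal and secretory epithelial and 3 of 6 chondrocyte genes, while 4 of 6 neutrophil and 3 of 6 erythroid genes were higher. Of osteoblast genes 2 of 8 were higher and 1 lower, of suture mesenchyme genes 3 of 6 were higher and 1 lower, and 2 of 5 osteoclast and 1 of 5 endothelial genes were higher. With the ciliated sum as a covariate 1 of the 10 genes passed, Spred1, and 1221 of all genes did. The Etv1 difference was then larger, at -0.91, Dusp6 and Spry2 stood near their values without it, at 0.20 and -0.17, and Etv4 was smaller, at -0.17 (edgeR adjusted p = 0.226 to 0.831). With total-count scaling Spry4, Spred2 and Spred3 passed as well, at -0.41, -0.25 and -0.45 (edgeR adjusted p = 0.0310, 0.0234 and 0.0271). The part of these markers in the strain difference was not tested further.

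Between mutants, 5 of 10 genes passed and all 5 were lower in BALB/c, beside 36.9% of all genes called and 18.9% called lower. Spred1 was 57.6, 63.7 and 61.2 CPM in C57BL/6 and 35.3, 40.5 and 39.7 CPM in BALB/c mutants. This was the smallest p among the 10 genes (log2 difference -0.66, SE 0.0876, edgeR adjusted p = 0.000148). Etv1 differed by -0.80 (SE 0.199, edgeR adjusted p = 0.00814), with 10.98 to 16.1 CPM in C57BL/6 and 6.0 to 9.3 CPM in BALB/c. Etv5 differed by -0.39 (SE 0.0809, edgeR adjusted p = 0.00283), with 54.5 to 62.3 CPM against 42.4 to 49.9 CPM. In wild type mice the Etv5 strain difference was 0.12 (edgeR adjusted p = 0.244).

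Spry4 and Spred2 completed the 5. Spry4 was 92.8, 106 and 77.6 CPM in C57BL/6 and 65.7, 60.4 and 74.4 CPM in BALB/c mutants, a log2 difference of -0.46 (SE 0.152, edgeR adjusted p = 0.0318). Spred2 was 25.1, 29.5 and 27.5 CPM against 19.8, 23.8 and 21.9 CPM, a difference of -0.32 (SE 0.0995, edgeR adjusted p = 0.0238). With total-count scaling Spry4 was at -0.35 and Spred2 at -0.21 (edgeR adjusted p = 0.0685 and 0.0581). Each lost its call without any of 4 libraries, with edgeR adjusted p of 0.0528 to 0.117 for Spry4 (C57BL/6 mutant replicates 4 and 5, BALB/c mutant replicates 16 and 17) and 0.0587 to 0.107 for Spred2 (C57BL/6 mutant replicates 5 and 6, BALB/c mutant replicates 16 and 18). Spred3 and Etv4 were also lower in every BALB/c mutant than in every C57BL/6 mutant but did not pass (edgeR adjusted p = 0.0613 and 0.0783). Spred3 passed without BALB/c mutant replicate 16 (edgeR adjusted p = 0.0359). Ranges were thus separate and lower in 7 of 10 genes, beside 24.8% of all genes. Spry1, Spry2 and Dusp6 differed by -0.14, 0.03 and 0.04, and their groups overlapped. The authors' deposited table, which compares C57BL/6 with BALB/c, listed 6 of the 10 genes higher in C57BL/6 mutants at a q-value under 0.05, the same 5 and Spred3, beside 36.1% of all genes. Across this comparison 6 of 6 erythroid genes and 6 of 6 neutrophil genes were higher in BALB/c, with erythroid sums of 423 to 516 CPM against 51.3 to 80.5 CPM. Lower in BALB/c, as the 5 genes were, were 4 of 5 osteoclast, 4 of 8 osteoblast, 3 of 6 basal and secretory epithelial, 5 of 5 olfactory neuron and 1 of 5 endothelial genes. Single genes of the osteoblast, suture mesenchyme, ciliated cell and glial lists were higher. Osteoclast sums were 2924 to 3343 CPM in BALB/c and 4347 to 4904 CPM in C57BL/6 mutants. Of 6 skeletal muscle genes 5 were higher in BALB/c, where replicate 16 held 365 CPM of them. Without that library 4 of the 10 genes passed, Spred3 among them and Spry4 and Spred2 not. With the muscle sum as a covariate 2 of the 10 genes passed, Spred1 and Etv5, beside 23.7% of all genes. The calls of Etv1, Spry4 and Spred2 were lost in that fit. With the erythroid sum as a covariate 0 of the 10 genes passed, and 10 of all genes did. The differences of Spred1 (-1.14), Etv1 (-1.34), Etv5 (-0.57) and Spred2 (-0.64) were then larger than without it and that of Spry4 (-0.20) smaller, with edgeR adjusted p of 0.450 to 0.960. The part of these cells in the result was not tested further. By DESeq2, which called 39.2% of all genes, Spred3 and Etv4 passed as well (DESeq2 adjusted p = 0.0433 and 0.0483), and by limma-voom, which called 36.4%, Spred3 did (limma-voom adjusted p = 0.0368).

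The rest of the pathway was read from 56 further genes of FGF signalling and ERK output, of which 55 were tested. In C57BL/6, 13 were higher and 7 lower in mutants, beside 11.3% and 12.6% of all genes. In BALB/c 0 passed, beside 0.136%. Between wild type strains 16 were higher and 14 lower in BALB/c, beside 22.8% and 25.6% of all genes. Between mutants 2 were higher and 14 lower, beside 18% and 18.9% of all genes. Of the 55, 23.6% were thus higher and 12.7% lower in C57BL/6 mutants, 29.1% and 25.5% between wild type strains, and 3.64% and 25.5% between mutants. In C57BL/6 the changes were mixed at the top of the pathway. Among 6 ligands, Fgf1 was higher and Fgf9, Fgf10 and Fgf18 were lower. Among 7 receptors and co-receptors, Fgfr2 and Fgfr1 were higher and Fgfr4 and Fgfrl1 lower. Fgfr2 differed by 0.54 (SE 0.0999, edgeR adjusted p = 0.00405), and Fgfr1, another receptor of the family, by 0.51 (SE 0.0936, edgeR adjusted p = 0.00370).

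Below the receptors, 5 of 11 adaptors and RAS regulators were higher in C57BL/6 mutants and 0 lower. Of 13 genes of the RAF, MEK and ERK core 1 passed, the scaffold Ksr1, which was higher. These counts and those that follow stand beside 11.3% of all genes called higher and 12.6% called lower. Among 8 other feedback regulators 3 were higher (Dusp5, Errfi1 and Flrt2) and 1 lower (Il17rd, also called Sef). Dusp5, Errfi1 and Il17rd are inhibitors, whereas Flrt2 and Flrt3, also on this list, are membrane proteins that bind FGF receptors and are known to promote signalling. Flrt2 differed by 0.50 (SE 0.0683, edgeR adjusted p = 0.000798). Among 10 immediate early and other ERK targets, Egr3 was higher by 1.12 (SE 0.215, edgeR adjusted p = 0.00473) and the cell cycle gene Ccnd1 fell by 0.86 (SE 0.123, edgeR adjusted p = 0.00103), while the other 8 did not pass.

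**Figure D4:**
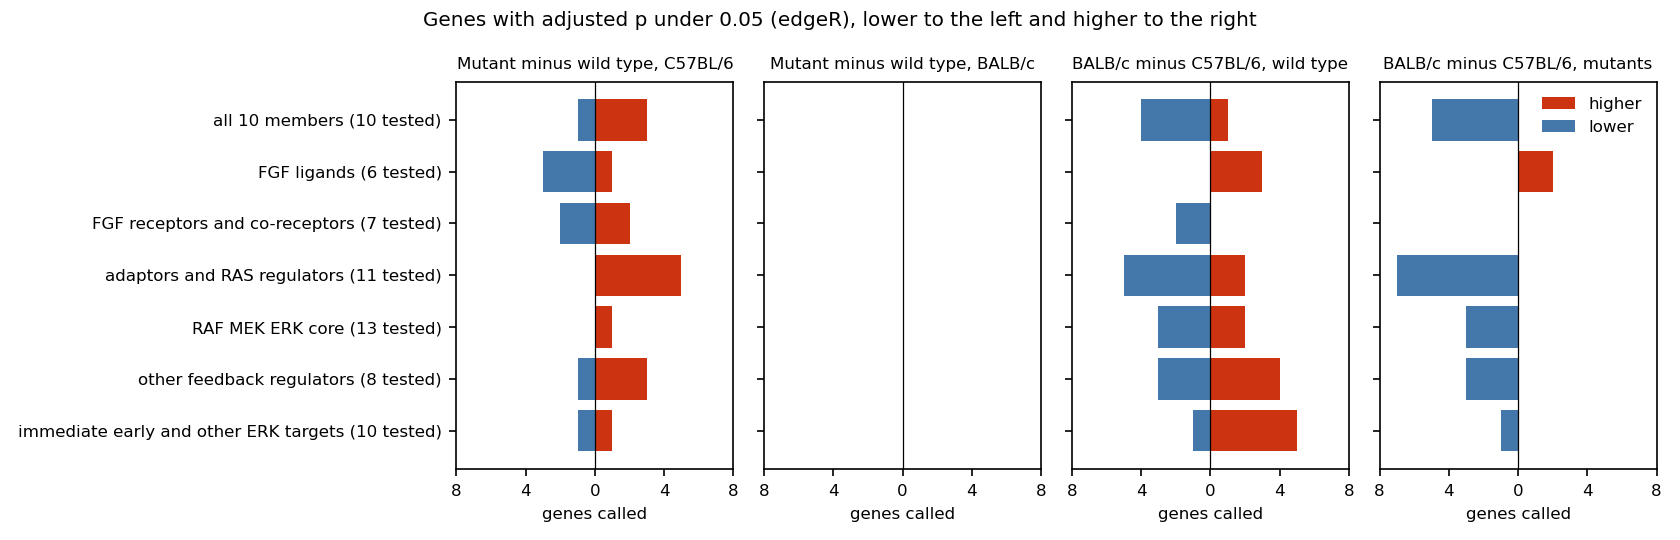
Number of genes with an adjusted p under 0.05 in each pathway group, lower to the left and higher to the right, in 4 comparisons. In C57BL/6 mutants 3 of the 10 genes were higher and 1 lower, the BALB/c genotype panel is empty, and the mutant strain panel lies mostly to the left.

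In BALB/c mutants 7 of 11 adaptors and RAS regulators were lower than in C57BL/6 mutants and 0 higher, beside 18.9% of all genes called lower. Between wild type strains 5 of the 11 were lower in BALB/c, beside 25.6%, and 2 (Grb2 and Shc1) were higher, beside 22.8%. The 5 smallest p-values in the list belonged to Rps6ka3, a kinase downstream of ERK, at -0.64 (SE 0.0778), the RAS regulators Rasa1 at -0.48 (SE 0.0625) and Nf1 at -0.43 (SE 0.0640), the adaptor Gab1 at -0.51 (SE 0.0728) and the ubiquitin ligase Cbl at -1.72 (SE 0.266), with edgeR adjusted p of 0.000427 or less. In wild type the 5 were Cbl at -2.86 (SE 0.289), Rps6ka3 at -0.58 (SE 0.0788), the phosphatase Dusp4 at -1.21 (SE 0.169), Il17rd at -1.60 (SE 0.228) and Fgf1, which was higher in BALB/c by 0.77 (SE 0.107). Their edgeR adjusted p was 0.000212 or less. Among 10 immediate early and other targets, 5 were higher in BALB/c wild type samples (Egr1, Egr2, Fos, Ier3 and Dusp1), beside 22.8% of all genes. In the same comparison 1 was lower (Ccnd1), beside 25.6% of all genes. The genotype effect differed between the strains for 4 of the 55 genes, 3 with a smaller and 1 with a larger value in BALB/c, beside 10% of all genes called. Averaged over the strains 7 of the 55 were higher and 3 lower in mutants, 12.7% and 5.45% of them, beside 7.99% of all genes called in either direction. The 5 smallest p-values were those of Flrt2 (0.40, SE 0.0483), Ccnd1 (-0.59, SE 0.0868), Fgf9 (-0.61, SE 0.128), Ksr1 (0.28, SE 0.0600) and Fgfr2 (0.31, SE 0.0705), with edgeR adjusted p of 0.00179 to 0.0227. In the difference of genotype effects Fgf1 (-0.65), Fgfr1 (-0.46) and Shc1 (-0.26) had smaller values in BALB/c and Fgf10 (1.02) a larger one, with edgeR adjusted p of 0.0244 to 0.0473.

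The genes most like the 10 in their course over the 12 samples were picked by Pearson correlation of log2 CPM among 10510 genes of at least 5 CPM, as a description. For the mean of the 10 they ran from Map3k7 (r = 0.98) through Chd9, Lclat1 and Stag1 to Ankib1 (r = 0.97). For Etv5 they ran from Ghr (r = 0.95) through Gusb, Manba and Rnf149 to Vdr (r = 0.94), and for Spry4 from Adamts1 (r = 0.96) through Mars, Noc2l and Ptgs2 to Ythdf1 (r = 0.93). For Dusp6 they ran from Icam2 (r = 0.94) through Pias3, Ctsw and Ltbr to Mios (r = 0.90). The samples share strain, genotype and sequencing run, so these values reflect the 4 groups as well as variation within them. Among the 10, Spred1 and Spred2 were the pair with the highest correlation (r = 0.89, and 0.81 for deviations from group means, 12 samples). For deviations from group means the lowest values were -0.77 for Spred3 and Etv1 (r = 0.28 over the samples as they stand) and -0.75 for Etv4 and Etv5 (r = -0.14).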

How the data were processed

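RNA sequencing libraries of 12 samples in 4 groups were mapped to the mm10 genome build, with bcl2fastq, TopHat2 2.0.6, HTSeq and DESeq2 named in the submitters' processing notes; their settings, including strand, are not given in the sources used here. The authors deposited raw gene counts, which held 0 odd values in any sample, a pattern that counting each mate of a pair would give. The deposited RPKM values were used only to check the gene lengths and library totals. The deposited length column is headed as coding length, but 37.8% of its values are multiples of 3, so it is called gene length here. The authors' table of 4 comparisons holds log2 fold changes with their p-values and with q-values, copied as deposited.

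Counts were analysed with edgeR 4.0.16 in R 4.3.3: filterByExpr (minimum count 10, minimum total count 15) kept 16190 genes, TMM scaled the libraries, and 1 quasi-likelihood model with 4 group means was fitted to all 12 samples. P-values were Benjamini-Hochberg adjusted over all genes, and genes were called under 0.05. CPM used TMM-adjusted library sizes. Intervals of log2 differences used the t distribution with the model's degrees of freedom. The code was also run on simulated counts; the recovery it had to reach was lowered after a first run, so this is no independent support. Alternatives were DESeq2 1.42.0, limma-voom (limma 3.58.1), RLE and total-count scaling, other filters (none, or at least 5 CPM in 3 samples), fits of 2 groups, marker sums as covariates (log2 of summed CPM plus 1), leaving out each library and, added after seeing the data, halved counts.

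The 10 genes and all lists were chosen with earlier results of these data known. All 10 were named, and of the wider list Fgfr2 and, in each comparison, the 5 called genes with the smallest p. Other wider-list genes were named after their values were seen, to say which ones a count holds. The 4 promoter windows shown were also picked after the values were seen. Of 60 values (10 genes in 6 comparisons), the 39 given singly were followed through the alternatives; these were selected after the alternatives had been seen, and the closing section gives the counts for all 60. Spry3 had no row and Hras was matched as Hras1. Gene coordinates are those of the authors' table, and promoter coordinates those of RefSeq on GRCm38.p6.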

Additional observations from a re-analysis of the deposited data

Results flagged for a closer look

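The genotype effect on Etv5 differed between the strains, by -0.51 on the log2 scale (BALB/c minus C57BL/6, SE 0.115, edgeR adjusted p = 0.0214). In C57BL/6 all 3 mutant samples were above all 3 wild type samples, and in BALB/c the groups overlapped. The call was kept in 6 of 12 fits that left out a library and in 7 of 11 other alternatives, where adjusted p ranged from 0.00183 to 0.786. In C57BL/6 mutants 5 of 5 osteoclast and 6 of 8 osteoblast genes were higher, as Etv5 was, as were 2 of 5 endothelial genes, while 6 of 6 erythroid, 5 of 6 ciliated, 5 of 6 basal and secretory epithelial, 3 of 6 neutrophil and 3 of 6 chondrocyte genes were lower. The call was lost with the ciliated covariate (-0.32, edgeR adjusted p = 0.786), the erythroid covariate (-0.67, 0.582) and the muscle covariate (-0.49, 0.0958), and with total-count scaling (-0.28, 0.125). The part of the other markers in the result was not tested.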

How the results depend on the processing

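No paired analysis was possible because the groups share no replicate numbers. Halving the counts changed no call among the 39 values given singly. The number of the 10 genes called moved as follows, each with the share of all genes called in the same fit. In C57BL/6 (4, beside 23.9%) it was 3 with DESeq2 (27.6%) or no filter (17.6%), 2 with total-count scaling (28.9%), only the 2 groups (9.21%) and the Y-linked (17.2%) or muscle covariate (16.9%), and 0 with the ciliated (0.0247%) or erythroid covariate (0.0309%). Between wild type strains (5, 48.5%) it was 7 with total counts (44%; Spry4, Spred2 and Spred3 gained, Dusp6 lost), 6 with DESeq2 (48%) or the stricter filter (52.5%; Spred3 gained in both), 4 with only the 2 groups (46.2%) or the Y-linked (42.9%) or muscle covariate (46.8%), and 1 with the ciliated covariate (7.54%). Between mutants (5, 36.9%) it was 7 with DESeq2 (39.2%; Spred3 and Etv4 gained), 6 with limma-voom (36.4%; Spred3 gained), 3 with total counts (36.8%), 2 with the muscle (23.7%) and 0 with the erythroid covariate (0.0618%). For the difference of genotype effects (1, 10%) it was 0 with the ciliated (0.0371%), erythroid (0.00618%) or muscle covariate (2.42%); with total counts (11.4%) 1 gene was called, Spry2 (0.46, edgeR adjusted p = 0.0442) instead of Etv5 (-0.28, 0.125). For the averaged effect (1, 7.99%) it was 3 with DESeq2 (13.6%) and 0 with total counts (6.13%) or the ciliated (0.167%) or erythroid covariate (0.198%). Leaving out each library gave 2 to 5 calls in C57BL/6, 0 to 0 in BALB/c, 2 to 5 between wild type strains, 3 to 4 between mutants, 0 to 1 for the difference of effects and 0 to 3 for the average.

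Of the 39 values, signs turned in 19 of 463 alternative values and 3 of 264 leave-one-out values. Over all 60 values, they turned in 38 of 700 and 21 of 480, of which 1 and 0 were of called values. The called value was Spry2 in C57BL/6, at 0.032 with the erythroid covariate. With total counts, Dusp6 was -0.045 in C57BL/6 and 0.0046 in BALB/c, and Spry1 was -0.030 between wild type strains and 0.014 for the difference of effects. With the ciliated covariate, C57BL/6 values were -0.069 for Spry4, -0.19 for Spred2, 0.053 for Spred3 and 0.34 for Etv4, wild type strain values were -0.21 for Spry1 and -0.076 for Etv5, and differences of effects were 0.071 for Spry1 and 0.016 for Spred1. With the erythroid covariate, Spred3 was 0.10 in C57BL/6, mutant strain values were -0.35 for Spry2, -0.26 for Dusp6 and 0.15 for Etv4, and the Spry2 difference of effects was -0.12. With the muscle covariate, Dusp6 was -0.022 between mutants. Leaving out a library gave -0.084 to 0.034 for Dusp6 in BALB/c and -0.0033 to 0.089 for Spry2 between mutants. Apart from the overlap of genotype with the covariates and the shift under total counts, the cause was not tested. Raw counts were 120 to 384 for Etv4 and 188 to 394 for Spred3, and the part of low counts in these changes was not tested.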
